A study of Bos taurus with 6 samples.

Results

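Water and small uncharged solutes cross epithelial membranes through 2 channel families, and 7 of their genes were examined in bovine mammary epithelial cells (bMECs) edited to knock out *ACADSB*. They are the water channels *AQP1* and *AQP5*, the aquaglyceroporins *AQP3*, *AQP7* and *AQP9*, the unorthodox aquaporin *AQP11* and the urea channel *SLC14A1*. The genes were chosen by name from the deposited tables with the difference between the groups in these same libraries already known. Their own differences are therefore given as a description, without a test. Of the 7, 4 were rows of the count table of 15693 genes and 3 were read from the FPKM table of 32774 genes. Only *SLC14A1* and *AQP1* had enough counts to be among the 13720 tested genes.

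Total RNA was sequenced from 2 groups of 3 libraries, all from cultured bMECs of Chinese Holstein dairy cow mammary tissue labelled as lactating. Both groups were described as grown in DMEM/F12 with serum, hydrocortisone and insulin. The ACADSB-/- cells had been transfected with a plasmid (PX458) that carries Cas9, a guide against *ACADSB* and green fluorescent protein, and, by the study's methods, were expanded from a single sorted fluorescent cell, while the series' design text can also be read as 3 knock-out lines. The other group, called WT here, is the unedited control of the same cells, and no source states whether it was transfected or cloned. The 3 ACADSB-/- libraries may thus be of 1 clone, as the paper's word monoclonal for the line also has it, or of several. In either case transfection and sorting went with the knock-out and are not stated for WT. An effect of *ACADSB* and the history of the sorted cells therefore cannot be told apart. The library protocol speaks of pooled RNA, and separate cultures are not mentioned, so the spread between libraries and every p drawn from it may be technical. The libraries held 30550275 to 34983965 counts, and *ACADSB* was counted 9, 7 and 15 times in ACADSB-/- against 38, 34 and 20 in WT. Epithelial markers were present (*KRT18* at 2352 ± 167 CPM in ACADSB-/- and 3457 ± 62.3 CPM in WT, SD, n = 3), where CPM is the count scaled to the TMM-adjusted library size. Of 10 milk secretion genes, 7 had no read in any library, the 4 casein genes among them, and the luminal factors *ELF5*, *ESR1* and *PGR* had none either.

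Aquaporins are tetramers in which each subunit is its own pore. The classical members pass water, the aquaglyceroporins also pass glycerol and, in several cases, urea and hydrogen peroxide, and the unorthodox members sit mainly on internal membranes. Urea channels of the SLC14 family let urea move down its gradient without an energy source. *SLC14A1* encodes UT-B, which in humans carries the Kidd blood group and in cattle is found in the rumen wall, where urea is recycled to the gut. In the mammary gland, water follows lactose and ions into milk, and milk urea follows blood urea.

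*SLC14A1* was the member with the large difference between the groups. The ACADSB-/- libraries held 1455, 1237 and 1277 counts of it, against 103, 131 and 101 for WT. The 3 ACADSB-/- libraries lay close together and all stood far above every WT library. Scaled to library size, the level was 40.6 ± 0.521 CPM in ACADSB-/- and 3.57 ± 0.64 CPM in WT (SD, n = 3). The log2 fold change was 3.51 (standard error 0.110, edgeR), an 11.4-fold higher level in ACADSB-/- bMECs. Ordered from the highest log2 fold change down, *SLC14A1* was number 29 of the 13720 tested genes, whose median log2 fold change was 0.0049. Among all tested genes, 5.3% were called higher and 4.92% lower at an adjusted p under 0.05 and 2-fold, and 31.9% (higher) and 31.7% (lower) had every library of a group above all of the other. In FPKM, the fragments scaled to gene length and library size, *SLC14A1* went from above 27.2% of the genes of the count table in WT to above 62.8% in ACADSB-/-. The RNA is bulk, so more cells that carry *SLC14A1* RNA and more of it per cell cannot be told apart.

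**Figure D1:**
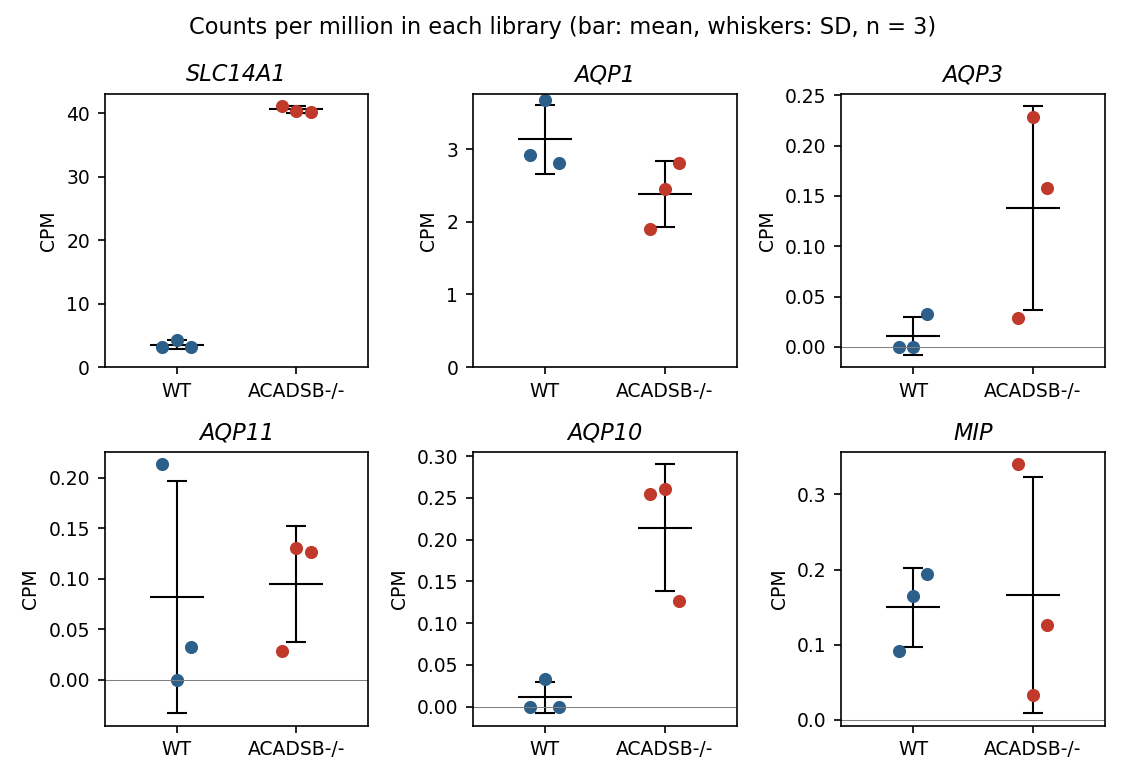
CPM (scaled counts, linear axes that differ between panels) of 4 members, *SLC14A1*, *AQP1*, *AQP3* and *AQP11*, and of 2 other aquaporin genes, *AQP10* and *MIP*, in the 3 WT (blue) and 3 ACADSB-/- (red) libraries, with the mean and SD. For *SLC14A1* the means are 40.6 CPM in ACADSB-/- and 3.57 CPM in WT and the groups do not overlap, while *AQP1* overlaps and the other 4 genes rest on at most 12 counts in a library.

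*AQP1*, the constitutively open water channel of red cells, capillary endothelium and many epithelia, was low in both groups. Its counts were 67, 75 and 89 for ACADSB-/- against 96, 112 and 87 for WT. The groups overlapped, since the highest ACADSB-/- library had more counts than the lowest WT library. The means were 2.38 ± 0.458 CPM in ACADSB-/- and 3.14 ± 0.472 CPM in WT, and the log2 fold change was −0.40 (standard error 0.218, edgeR). Leaving out any single library gave −0.53 to −0.25. *AQP1* was thus lower in mean in ACADSB-/- bMECs, with libraries of both groups at the same level. The other water channel, *AQP5*, which serves secretion in salivary, lacrimal and sweat glands, was listed at 0 FPKM in all 6 libraries. A count of 0 allows up to 3 counts per library, or 0.085 to 0.0985 CPM, for counting error only.

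Of the 3 aquaglyceroporins among the members, only *AQP3* gave any read. *AQP3* passes water, glycerol and hydrogen peroxide and is abundant in the basal layers of the skin. Its counts were 1, 7 and 5 for ACADSB-/- against 0, 0 and 1 for WT. With 13 counts against 1 the CPM were 12.6-fold apart (exact 95% limits 1.89 and 533, which cover counting error only), and the lowest ACADSB-/- library did not exceed the highest WT library. Without ACADSB-/- replicate 2 the ratio was 8.44, and without WT replicate 1 or 2 it was 8.18 or 8.5. Without WT replicate 3 the WT libraries held no *AQP3* count. *AQP7*, the glycerol exit channel of adipocytes, and *AQP9*, the broad solute channel of liver and leukocytes, were listed at 0 FPKM in every library. The same floor applies to them, which for *AQP5*, *AQP7* and *AQP9* corresponds to 0.0458 to 0.0736 FPKM.

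*AQP11*, a channel of the endoplasmic reticulum known from the kidney, was counted 1, 4 and 4 times for ACADSB-/- against 7, 0 and 1 for WT. The CPM ratio was 1.09, with exact 95% limits of 0.372 and 3.24. The WT level rested mostly on replicate 1, without which the ratio was 5.66.

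Per length, *SLC14A1* and *AQP1* stood at the same low level in WT bMECs, at 1.13 ± 0.212 and 1.16 ± 0.184 FPKM (SD, n = 3), which do not differ beyond their spread. In ACADSB-/- bMECs they were at 13.2 ± 0.179 and 0.903 ± 0.179 FPKM. *SLC14A1* thus made up 42.9% to 50.1% of the summed FPKM of the 7 members in the WT libraries and 91.0% to 94.6% in the ACADSB-/- libraries. *AQP1* made up 46.6% to 49.9% and 5.07% to 7.38%. *AQP11* and *AQP3* followed far below, at 0.0939 and 0.00599 FPKM in WT and 0.112 and 0.0796 FPKM in ACADSB-/-. The order of *AQP11* and *AQP3* is not beyond their spread in either group, and the 3 members listed at 0 came last.

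The rest of the aquaporin and urea channel family was as low. Of 9 other family names, 8 were found in the files and 0 had enough counts to be tested. *AQP10*, an intestinal aquaglyceroporin in humans, was counted 9, 8 and 4 times for ACADSB-/- against 0, 1 and 0 for WT. Its groups did not overlap, and its CPM ratio was 20.3 with exact 95% limits of 3.26 and 838. An edgeR fit without the filter on low counts that had left both genes out gave an adjusted p = 0.0132 for *AQP10* and 0.885 for *MIP*. *AQP10* rests on 21 counts against 1, and the family was listed with earlier results known, so these p are a description only. The *AQP10* ratio was 13.2 without WT replicate 1 and 24.3 without ACADSB-/- replicate 3, and without WT replicate 2 the WT libraries held no *AQP10* count. *MIP*, the main water channel of the eye lens, had 12, 1 and 4 counts against 3, 5 and 6, for a CPM ratio of 1.17 (exact 95% limits 0.544 and 2.57) that was 0.54 without ACADSB-/- replicate 1. *AQP6* had at most 2 reads in a library. *AQP2*, the vasopressin-regulated channel of the kidney, *AQP4*, *AQP8* and *AQP12B* had no reads.

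The files place *SLC14A1* on the plus strand of chromosome 24 from 46045306 to 46069043, with a gene model of 3112 bases, and no other gene of the FPKM table overlaps it. The sources used here do not name the genome build behind these positions. Its relative *SLC14A2*, which encodes the kidney urea channels, ends 40.6 kb upstream and was hit by 0, 0 and 2 reads for ACADSB-/- against 1, 0 and 1 for WT. The neighbouring urea channel gene was thus near 0 in both groups. The 3 nearest tested genes on each side were looked at after the values of *SLC14A1* were known. *PSTPIP2*, an adaptor of the actin skeleton 393 kb from the *SLC14A1* start, fell by 0.70 (standard error 0.0886, adjusted p = 6.3e-08, edgeR) and *FAM210A*, upstream, rose by 0.31 (adjusted p = 0.0199, edgeR), a call that ended without ACADSB-/- replicate 3 or WT replicate 3. *SETBP1*, *EPG5*, *ATP5A1* and *RNMT* had log2 fold changes of 0.05, −0.01, −0.02 and 0.14, none past an adjusted p of 0.05, though *RNMT* passed it at 0.24 without WT replicate 2. None of these 6 neighbours came near the difference of *SLC14A1*, but they are distant. The closest, *EPG5*, starts 275.735 kb downstream of the *SLC14A1* start. On the upstream side *SETBP1* starts at −1151.56 kb, and *RNMT* and *FAM210A* start farther away. No tested gene starts closer, so whether the difference is confined to *SLC14A1* within its locus was not tested.

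**Figure D2:**
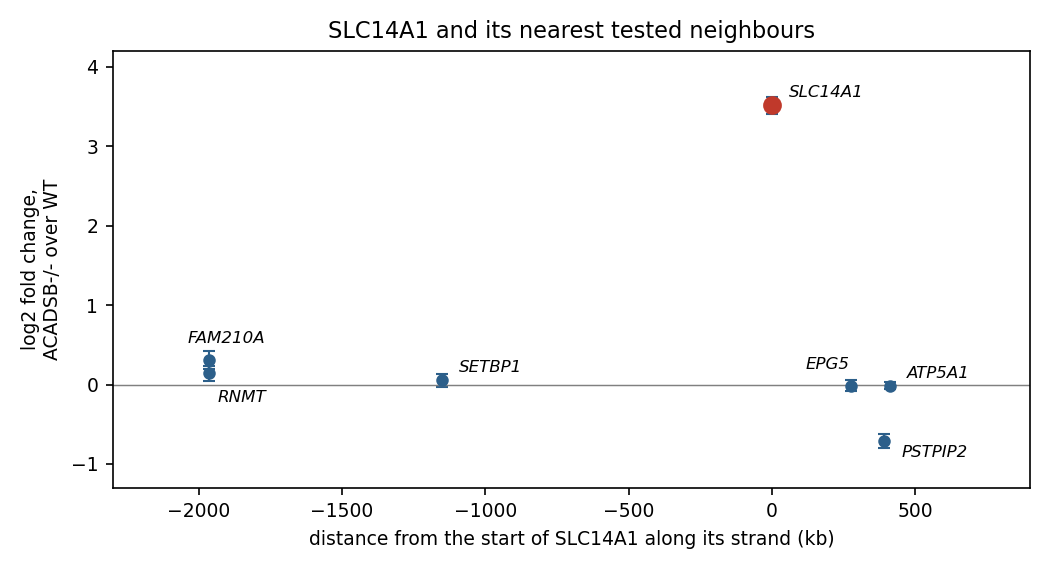
Log2 fold change (ACADSB-/- over WT, with standard error) of *SLC14A1* (red) and the 3 nearest tested genes on each side (blue) against the distance of their starts from the start of *SLC14A1* in kb. *SLC14A1* is at 3.51 and its neighbours lie between −0.70 and 0.31.

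Among the other members, *AQP1* lies on the minus strand of chromosome 4 from 66067576 to 66081773 and *AQP11* on the minus strand of chromosome 29 from 18566200 to 18577785. *AQP3*, from 76970929 to 76976884 on chromosome 8, is 40.3 kb from *AQP7*, which is on the same strand and had no reads. *AQP5* lies on chromosome 5 between *AQP6* and *AQP2*, with gaps of 5.6 and 13.1 kb, and this trio had at most 2 reads per gene and library. *AQP9* lies on chromosome 10 from 52314760 to 52362363.

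The genes whose profile over the 6 libraries was nearest to that of *SLC14A1* were *TCHH*, *STC1* and *IGFBP3*, at Euclidean distances of 0.465, 0.499 and 0.692 between log2 CPM values taken relative to the WT mean. The measure compares the size of the change and not the level. *TCHH* (trichohyalin, a protein of the hair follicle) was at 600 CPM in ACADSB-/- and 59.5 CPM in WT. *STC1*, a secreted glycoprotein hormone of mineral balance, was at 12 and 0.916 CPM. *IGFBP3*, the main carrier of insulin-like growth factors in blood, was at 53.6 and 4.23 CPM. These 3 are a description, since all were picked for this pattern.

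**Figure D3:**
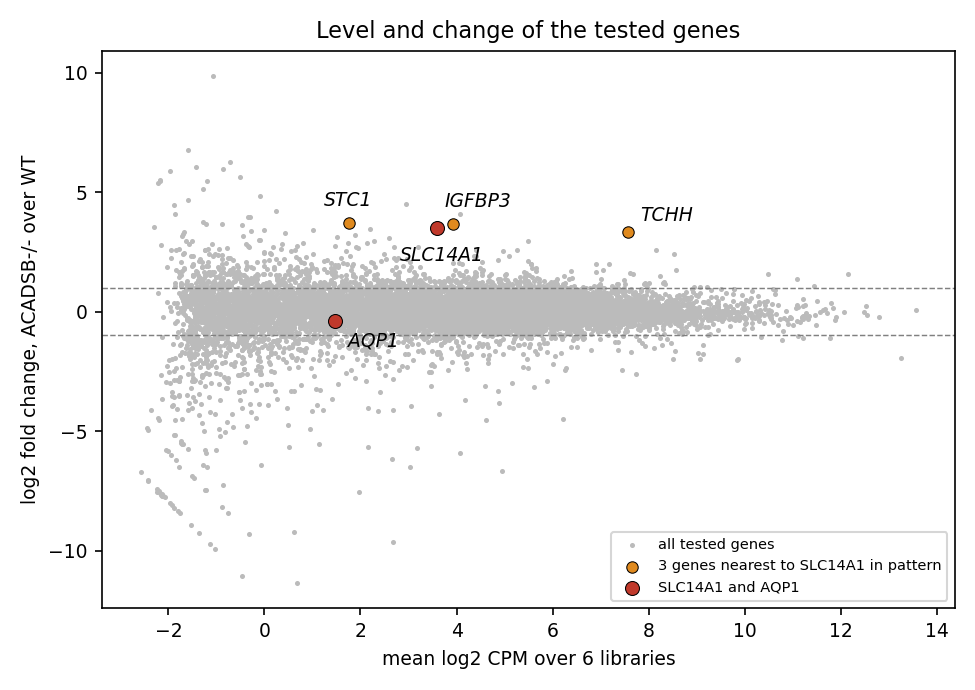
Mean log2 CPM over the 6 libraries against the log2 fold change (ACADSB-/- over WT) of the 13720 tested genes (grey), with *SLC14A1* and *AQP1* in red, the 3 genes of nearest pattern in orange and dashed lines at 2-fold. *SLC14A1* is at 3.51 and *AQP1* at −0.40.

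Markers of other cell types that carry these channels were read from lists of textbook genes, with genes called higher or lower at an adjusted p under 0.05 (edgeR), which 29.7% of all tested genes passed as higher and 28.6% as lower. Of 10 red cell genes, looked at because *SLC14A1* and *AQP1* are red cell genes in humans, 6 had no read in any library (*HBB*, *ALAS2*, *SLC4A1* and *EPB42* among them), and the list summed to 0.568 to 1.08 CPM in ACADSB-/- and 0.295 to 0.518 CPM in WT. Its only tested gene, *HBA*, had 24, 20 and 10 against 10, 4 and 7 counts (log2 fold change 1.30, adjusted p = 0.0445, edgeR), a call that ended in 7 of 13 alternatives, among them without ACADSB-/- replicate 1 or 2 and without WT replicate 2 or 3 (adjusted p 0.00836 to 0.171). The part of red cell RNA in the *SLC14A1* difference was not tested. The keratinocyte list summed to 415 to 435 and 420 to 448 CPM, with *LOR* and *KRT1* at 0 in all libraries, 3 of 9 tested genes higher and 4 lower, the former close to the share over all tested genes. *IVL* (involucrin) rose by 3.09 and *CSTA* (cystatin A) fell by 3.91. The part of such differentiation genes in the *SLC14A1* difference was not tested.

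Endothelial genes, which are of interest beside *AQP1*, summed to 5.35 to 8.04 CPM in ACADSB-/- and 12.4 to 12.9 CPM in WT. *CDH5* and *CLDN5* were at 0 in all libraries, and 1 of 4 tested genes was higher and 2 were lower. *PECAM1* had 1, 1 and 0 against 30, 42 and 52 counts, while *VWF* had 191, 102 and 146 against 62, 77 and 55. The adipocyte list, of interest beside *AQP7*, summed to 1.73 to 2.83 and 3.38 to 3.68 CPM, with 1 of 2 tested genes lower. The leukocyte list, of interest beside *AQP9*, summed to 3.03 to 3.94 and 2.61 to 3.5 CPM, with *PTPRC* at 0, 1 of 2 tested genes higher (0 without ACADSB-/- replicate 1 or 3 or WT replicate 2 or 3, and with DESeq2) and 1 lower. Fibroblast genes summed to 1292 to 1331 and 1118 to 1185 CPM, nearly all from *DCN* (decorin), with 1 of 6 tested genes higher (2 without ACADSB-/- replicate 2 or WT replicate 2) and 3 lower (5 without WT replicate 3). Each of these counts rests on 2 to 7 tested genes and stands beside 29.7% higher and 28.6% lower over all tested genes, and nothing particular to a list is read from it. The luminal list had 3 of 7 tested genes higher (*EPCAM* by 0.60) and 2 lower (*KRT18* fell by 0.56). The basal list had 3 of 7 higher (*ACTA2* by 0.73) and 3 lower (*KRT17* fell by 2.99). The milk secretion list had 1 of 2 higher (*XDH* by 1.24) and 1 lower (*MFGE8* fell by 0.67). What these markers add to the *AQP1* values was not tested.

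Genes that work beside the channels were counted at an adjusted p under 0.05 (edgeR, adjusted over the 13720 tested genes), beside the same 29.7% higher and 28.6% lower among all of these. The volume-regulated anion channel, built from LRRC8 subunits, lets chloride and organic osmolytes leave swollen cells. All 5 of its subunit genes were higher in ACADSB-/- bMECs, with a median log2 fold change of 0.65. *LRRC8B* rose by 1.13 (standard error 0.0731, adjusted p = 4.4e-14), from 770, 819 and 827 counts in WT to 1996, 1713 and 1795. *LRRC8D*, whose subunit favours the passage of organic osmolytes, rose by 0.98 (standard error 0.0543), *LRRC8C* by 0.65 and *LRRC8E* by 0.32. *LRRC8A*, the subunit that every working channel needs, rose by 0.23 (standard error 0.059, adjusted p = 0.0013).

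Genes of osmolyte accumulation moved both ways, with 2 of 6 tested genes higher, 3 lower and 1 not past the test (median −0.02). *AKR1B1*, aldose reductase, which makes sorbitol, had 948 ± 10.0 CPM in WT and 288 ± 7.36 CPM in ACADSB-/- (log2 fold change −1.72, adjusted p = 1.8e-23, edgeR). *NFAT5*, the transcription factor of the response to hypertonicity, rose by 0.63 (standard error 0.0824), and the stress chaperone *HSPA4L* by 1.55. The taurine carrier *SLC6A6* fell by 0.46 and the kinase *SGK1* by 0.92. The inositol carrier *SLC5A3* had a log2 fold change of 0.43 (adjusted p = 0.061, edgeR), which passed the test at 0.53 without ACADSB-/- replicate 1.

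Of 24 tested genes of sodium, potassium and chloride transport, 6 rose, 8 fell and 10 did not pass the test (median −0.12). Without ACADSB-/- replicate 1, 5 were lower. *SCNN1A*, the alpha subunit of the epithelial sodium channel, was counted 161, 147 and 133 times for ACADSB-/- against 25, 33 and 22 for WT (log2 fold change 2.40, standard error 0.238, adjusted p = 6.2e-10, edgeR). The chloride channel *ANO1* had 5, 3 and 1 against 73, 90 and 93 counts and fell by 4.83 (standard error 0.438). *SLC12A2*, the sodium-potassium-chloride cotransporter that loads chloride for secretion, rose by 0.78, and its activating kinases *OXSR1* and *STK39* by 0.91 and 0.49. The genes *SLC12A4* and *SLC12A7* of the same family fell by 0.71 and 0.53. *CFTR* and *SCNN1B* had no reads.

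All 12 tested genes of urea and arginine metabolism passed the test, 5 higher and 7 lower (median −0.37). Without ACADSB-/- replicate 3 or WT replicate 2, 3 were higher. *ARG2*, the mitochondrial arginase, which splits arginine into urea and ornithine, had 59.0 ± 1.70 CPM in WT and 31.3 ± 1.69 CPM in ACADSB-/- (log2 fold change −0.91, adjusted p = 1.9e-12, edgeR). *ASL*, which releases arginine from argininosuccinate, fell by 0.81, and *OAT*, which uses ornithine, by 0.62. The carrier of basic amino acids *SLC7A7* fell by 1.75 (adjusted p = 0.0148, edgeR), a call that ended without ACADSB-/- replicate 1. *SLC7A7* rested on few counts, 4, 4 and 5 for ACADSB-/- against 14, 15 and 14 for WT. Of the same family, *SLC7A1* rose by 0.35 (22.4 CPM in ACADSB-/- and 17.6 CPM in WT) and *SLC7A2* fell by 0.25. *ODC1*, which turns ornithine into putrescine, rose by 1.06 (standard error 0.0461), and *ASS1* by 0.45. The liver genes *ARG1* and *OTC* had no reads and *CPS1* had 1 to 3 in all libraries together.

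Of 14 tested genes of glycerol release and use, 5 rose, 4 fell and 5 did not pass the test (median 0.15). *MGLL*, the last lipase of glycerol release, fell by 1.68 (standard error 0.119) and *PNPLA2*, the first, by 0.40. *LIPE*, another lipase of the list, had a log2 fold change of 0.21 and did not pass the test (adjusted p = 0.371, edgeR). *GPD1L* rose by 1.41, *GPAT3* by 1.30, *GPD2* by 0.93 and *GK* (glycerol kinase) by 0.30 (adjusted p = 0.00043, edgeR). These genes were measured in cells with no *AQP7* or *AQP9* reads.

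Of 17 tested genes of hydrogen peroxide, 7 rose, 6 fell and 4 did not pass the test (median 0.06). *SOD2* rose by 1.10, *CYBB* by 1.04, *DUOX2* by 0.48 and *PRDX1* by 0.45. *CAT* (catalase) fell by 0.72, and *PRDX2* and *CYBA* by 0.40 each. Of 16 tested genes of the vasopressin and cAMP route, which in the kidney moves *AQP2* to the membrane, 8 rose, 3 fell and 5 did not pass the test (median 0.26). The membrane linkers *EZR* (ezrin) and *RDX* (radixin) rose by 0.94 and 0.97. The cAMP-dependent kinase gene *PRKACB* rose by 0.79, at 2.57 CPM in ACADSB-/- and 1.49 CPM in WT. *PRKACA*, at 25.3 and 27.6 CPM, did not pass the test (adjusted p = 0.199, edgeR). *PDE4D*, a cAMP phosphodiesterase, had 19, 26 and 4 against 41, 39 and 59 counts. It fell by 1.55, a call that ended with limma on log2(FPKM + 1). The vasopressin receptor genes *AVPR1A*, *AVPR1B* and *AVPR2* had no reads.

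**Figure D4:**
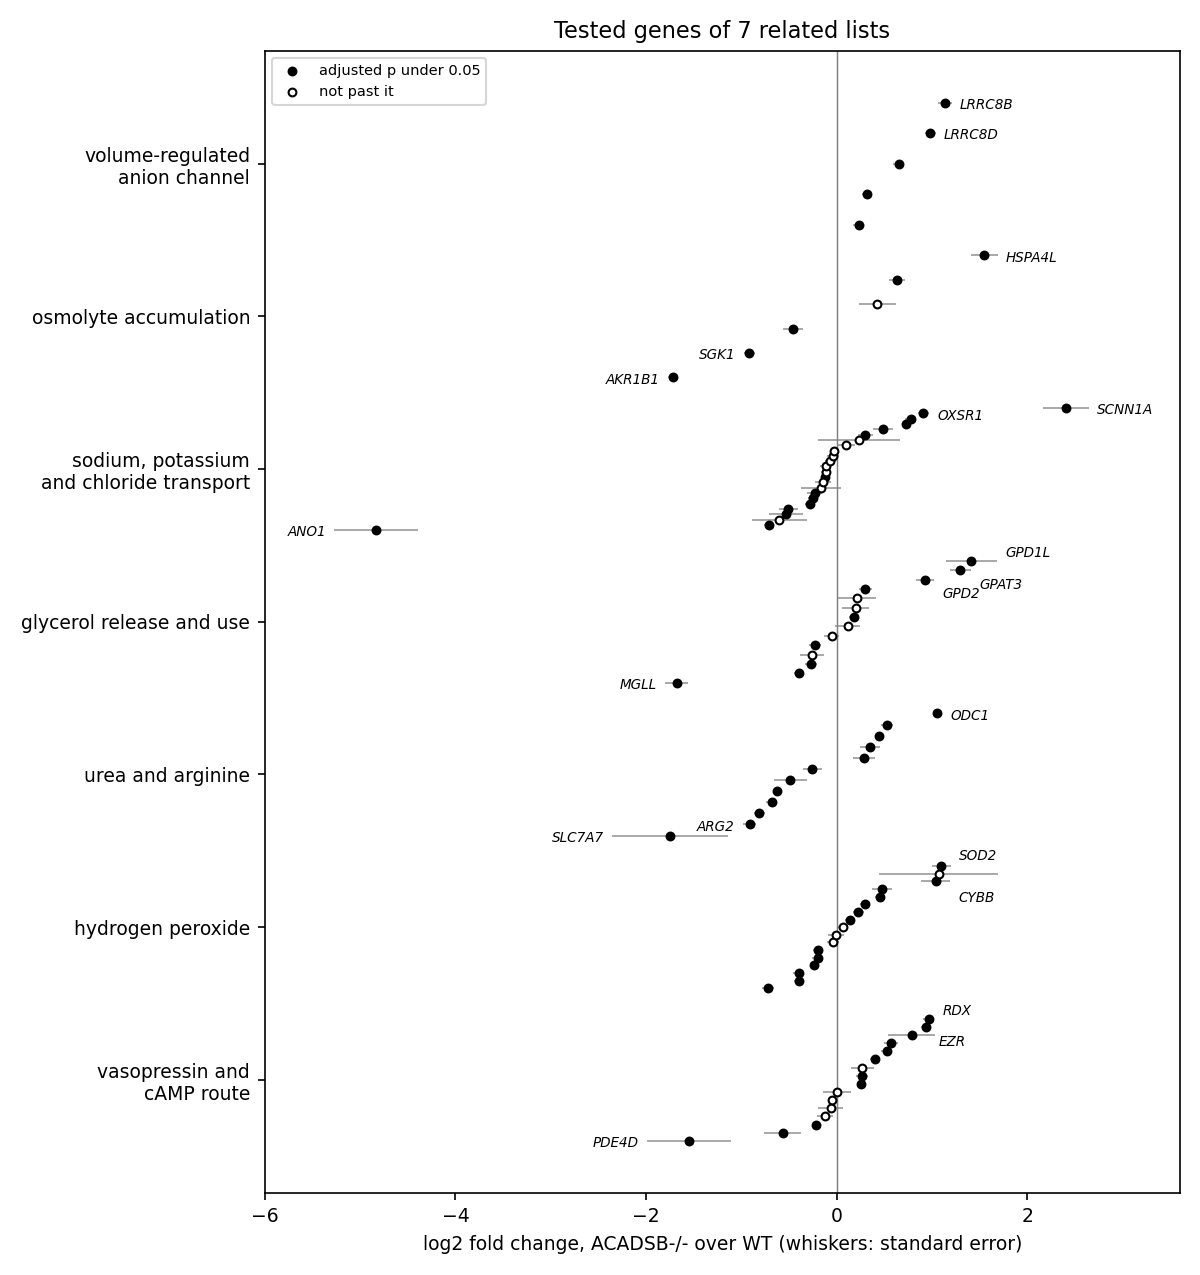
Log2 fold change (ACADSB-/- over WT, whiskers are standard errors) of each tested gene in 7 related lists, filled where the adjusted p was under 0.05. All 5 genes of the volume-regulated anion channel lie above 0, while the other 6 lists have genes on both sides.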

How the data were processed

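The authors removed reads with adapters, many ambiguous bases or low quality, aligned the others to the bovine genome and deposited raw counts and FPKM for each gene. The deposited FPKM gave back whole reads within 0.02 for at least 99.98780% of genes per library. Of tools, the submitters' processing notes list only Bismark 0.12.5, whose use they do not describe, and the sources used here do not name the aligner, counter, build, annotation or strand setting. The authors' own fold changes, p-values and gene list, and 3 per-library columns that match no sample here, were not used.

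Counts were filtered (filterByExpr, minimum count 10, total 15), TMM-scaled (factors 0.978 to 1.02) and tested with edgeR 4.0.16 (quasi-likelihood, robust, group only) in R 4.3.3, with Benjamini-Hochberg adjustment over all tested genes. Standard errors are the log2 fold change over the root of its F statistic. Alternatives used DESeq2 1.42.0, limma 3.58.1, other scaling, no filter, a replicate block and single libraries left out. Ratios of few counts have exact binomial 95% limits, which cover counting error only. The edgeR step was run on simulated counts with a common dispersion for all genes, and the outcome is not given here. Depth was 30550275 to 34983965 counts per library.

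The members and lists were chosen with earlier results of these data known. Named from each list were at most 4 genes past an adjusted p of 0.05 with the largest absolute log2 fold change. Others (among them *LRRC8A*, *SLC6A6*, *SLC5A3*, *STK39*, *OAT*, *ASS1*, *PNPLA2*, *GK*, *PRDX2*, *PRDX1*, *CYBA*, *SLC12A4*, *SLC12A7*, *PRKACA*, *SLC7A1*, *SLC7A2*, *LIPE* and the neighbours of *SLC14A1*) were named after their values were seen. RefSeq (ARS-UCD2.0) synonyms matched list names, and 1 name, *AQP12A*, had no match.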

Additional observations from a re-analysis of the deposited data

How the results depend on the processing

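The log2 fold changes of *SLC14A1* and *AQP1* kept their direction under all alternatives run. That of *SLC14A1* was 3.42 to 3.66 with single libraries left out, 3.51 with DESeq2 and 2.74 with limma on log2(FPKM + 1), a scale that understates the change of low genes. With the replicate block it was 3.52, and that of *AQP1* was −0.40. On log2(FPKM + 1) that of *AQP1* was −0.18, and with single libraries left out it was −0.53 to −0.25. Libraries of the same number did not deviate together (correlations −0.040, −0.026 and −0.024 over 13720 genes). No effect shared by a number was thus seen, which cannot tell whether such libraries were handled together. Genes called higher at 2-fold, 727 in all, were 295 with limma on log2(FPKM + 1) and 289 with edgeR's test beyond 2-fold, and the 675 called lower were 245 and 372. Of 884 alternative values for the list genes named by the rule or after their values were seen and for the neighbours, 859 kept direction and call, 16 lost the call, 2 gained it and 7 changed sign, all of neighbours close to 0. These were *SETBP1* (−0.061 to 0.133 with single libraries left out, negative without ACADSB-/- replicate 3), *EPG5* (0.0167 and 0.0211 with limma, −0.0572 to 0.026 with single libraries left out) and *ATP5A1* (0.0166 and 0.0167 with limma). The cause was not tested. For *PRDX1*, *CYBA*, *SLC12A4*, *SLC12A7*, *PRKACA*, *SLC7A1*, *SLC7A2* and *LIPE* only the main fit was read, and they are not among the 884. Of 416 list counts, 20 moved by over 1.5 times. Depth limits *AQP3*, *AQP11* and *AQP10*, each under 25 counts in a group, and the 3 members at 0.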
